A study of Arabidopsis thaliana with 12 samples.

Results

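Among 22746 probe sets of the ATH1 array, 138 read higher on both shoot arrays titled Rep1 than on all 4 shoot arrays titled Rep2 and Rep3, with a mean excess of at least 1.2 on the log2(signal + 11) scale. A root minus shoot log2 difference between -4.5 and 4 was also required, and it removed none of the 142 that met the other conditions. Another 4 were set aside by name: the flavonoid glycosyltransferase genes UGT78D2 and UF3GT, TBL26 and XTH32. The members were thus chosen by the signals of the 6 shoot arrays and by the tissue means. For that reason the shoot excess and the root minus shoot difference are described below with no test. The root arrays were compared with one another by a test, because no difference among root arrays entered the choice. Of the 138 members, 57 name 1 gene in the platform annotation and stand for 56 genes, 1 names several, and 80 are not listed there and stay unnamed. Only 11 of the 57 carry a gene symbol, and the other 46 are known by locus.

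The arrays held total RNA of the laboratory plant Arabidopsis thaliana, from work on weak, long-lasting irradiation by caesium-137, a radioisotope. There were 4 groups of 3 arrays: shoots of control plants, shoots of plants labelled cs, roots of control plants and roots of plants labelled cs. The label cs was taken from the series title as exposure to caesium (Cs), and the developmental stage was 1.0 for every array. The labels state no ecotype, dose, duration of exposure or age in days. Whether arrays numbered 1, 2 and 3 stand for separate plants or cultures is not stated either, and p-values therefore measure the spread among these arrays alone, which may be technical. What arrays of the same number share is likewise not stated.

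The symbols fall into a few known roles. Plants fix carbon in the leaf and move sugar on as sucrose, which SWEET proteins carry across membranes. Flavonoids and the anthocyanin pigments derived from them are made from phenylalanine, and their synthesis genes are known to respond to light. Light reaches many genes through phytochrome and through bZIP transcription factors of the HY5 type.

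The tissue labels were borne out by marker genes. The summed signal of 8 photosynthesis probe sets that are no members was 92.3% to 111.5% of its shoot mean in the single shoots and 1.26% to 8.88% of it in roots, with the highest root share in Cs root 2. The sum over PYK10, EXPA7 and EXPA18, genes typical of roots, was 3109 to 4235 in roots and 378 to 839 in shoots. Array medians were 41.1 to 49.6, and precision is limited by how few arrays there are. The 2 Rep1 shoot arrays correlated at 0.977 with each other over all probe sets, and at 0.945 to 0.959 with the other 4 shoots, which correlated at 0.975 to 0.981 among themselves.

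In the 2 Rep1 shoots the members stood at a median signal of 262 (control) and 224 (Cs), against 65.1 to 74.8 in the other 4 shoots. The excess of single members ran from 1.201 to 3.81 on the log2 scale with a median of 1.45. It reached 3 in 4 members, lay between 2 and 3 in 20, between 1.5 and 2 in 38, and between 1.2 and 1.5 in 76. In 102 of the 138, both Rep1 shoots were more than 2 times every other shoot. In 16 members all 4 other shoots were below 28.0, the shoot signal below which probe sets were called dim, while both Rep1 shoots were above it. Just inside the limit of the rule lay AT2G41040, AT5G05050 and AT4G02850, each with an excess of 1.21, and just outside it TRY, AT1G33110 and AT3G24190, each with 1.19. The mirror set, lower in both Rep1 shoots by the same margin, held 331 probe sets.

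The other shoots differed little from one another in these members. The mean of Rep2 lay above that of Rep3 in 74 of 138, with a median log2 difference of 0.04 and a range from -1.01 to 0.93. In roots the same comparison gave 77 of 138, with a median of 0.03 and a range from -1.05 to 1.05.

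**Figure D1:**
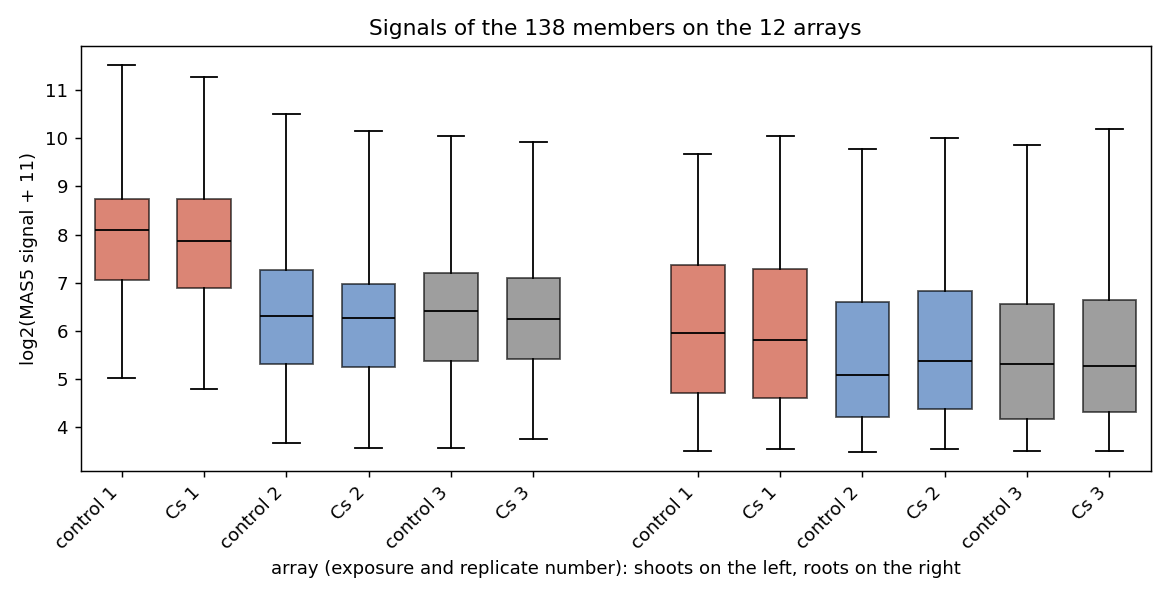
Box plots of log2(signal + 11) of the 138 members on each of the 12 arrays, shoots on the left and roots on the right, coloured by replicate number (line: median, box: quartiles, whiskers: lowest and highest member). The medians of the 2 Rep1 shoots correspond to signals of 262 and 224 against 65.1 to 74.8 in the other shoots, and those of the 2 Rep1 roots to 51.5 and 45.6 against 23.2 to 30.3 in the other roots.

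Sugar transport and sugar synthesis were represented by 3 members. This group, and those of light and of redox and sulphur below, were formed from the symbols of the members. Apart from the photosynthesis list, all probe sets of these roles were not counted. A list of 13 other transport probe sets, which holds no SWEET gene, had 0 members. SAG29, also named SWEET15, is a sucrose transporter gene known from senescent leaves, and it had the largest excess of any named member, 3.17. Its control shoots read 176, 3.75 and 24.3 for numbers 1, 2 and 3, and its Cs shoots 165, 8.18 and 5.69. The other 4 shoots were thus close to the floor of the array, and the Rep1 shoots stood far above them. MCCA, the other probe set on the dark and starvation list that holds SAG29, went the other way, with -0.65. SWEET2, a gene for a sugar transporter of the vacuole membrane, read 216, 87.9 and 60.01 in control shoots and 225, 76.7 and 72.2 in Cs shoots. ATSPS4F, a gene for sucrose-phosphate synthase, the enzyme that starts sucrose synthesis, read 237, 129 and 68.2 in control shoots and 236, 93.0 and 45.01 in Cs shoots. Here number 2 stood above number 3 in both exposures, and both lay below number 1.

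Of the flavonoid list, which does not hold every gene of that pathway, 1 member was left by the rule. CHIL, a chalcone isomerase-like gene whose product aids flavonoid synthesis, read 244, 48.2 and 75.4 in control shoots and 211, 51.3 and 48.4 in Cs shoots, an excess of 1.85. The list of 17 flavonoid and anthocyanin genes has 5 probe sets that name a gene alone: CHIL, UF3GT, UGT78D2, DFR and AT5MAT. All 5 were higher in the mean of Rep1 shoots than in the other shoots, with a median excess of 1.53, and 4 had both Rep1 values above all others. UF3GT and UGT78D2, set aside by name, had excesses of 1.86 and 1.53.

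Light signalling and light harvesting gave 3 members. HYH, a bZIP factor closely related to HY5, read 93.8, 5.43 and 19.1 in control shoots and 104, 20.8 and 15.9 in Cs shoots. AFR, an F-box protein gene of phytochrome A signalling, read 356, 66.1 and 40.8 in control shoots and 359, 51.5 and 82.8 in Cs shoots. Both genes had a gap between number 1 and the rest several times the range of the other shoots, with excesses of 2.11 and 2.41. LHCB4.3, which encodes a minor antenna protein of photosystem II, read 387, 103 and 160.2 in control shoots and 354, 100.4 and 119.8 in Cs shoots, an excess of 1.55. The related antenna genes LHCB4.1 and LHCB4.2 had differences of 0.02 and 0.05 over the same arrays. Over the 9 photosynthesis probe sets the median difference was 0.08, and LHCB4.3 was the only one past the limit.

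Redox and sulphur metabolism gave 2 members. GR1, a glutathione reductase gene, read 500.4, 223 and 217 in control shoots and 524, 189 and 173 in Cs shoots, an excess of 1.32 with narrow spread on either side. MGL, a gene for methionine gamma-lyase, which breaks down methionine, read 185, 59.4 and 104 in control shoots and 207, 49.8 and 60.2 in Cs shoots. Control shoot 3 lay closest to the Rep1 values.

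Cell wall enzymes gave 2 members of 30 probe sets on that list, whose median difference was 0.03. PMEPCRF, a pectin methylesterase gene, read 346, 133 and 156 in control shoots and 337, 104 and 127 in Cs shoots. GH9B8, of the glycosyl hydrolase family 9 of endoglucanases, read 153, 54.6 and 96.7 in control shoots and 216, 54.0 and 90.7 in Cs shoots. The excesses were 1.33 and 1.22, so both lie near the limit of the rule.

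Genes known by locus only made up most of the named set. AT3G21670 and AT1G68570 carry the synonyms NPF6.4 and NPF3.1 in RefSeq, members of the NRT1/PTR family of nitrate and peptide transporters, and had excesses of 1.24 and 1.64. AT3G21670 read 1133, 455 and 312 in control shoots and 968, 465 and 546 in Cs shoots. The other loci with the largest excesses, from 2.24 to 2.76, were AT5G15950, AT4G14090, AT3G28270, AT2G27420, AT1G55960 and AT1G64500. AT5G15950 read 779, 144 and 128 in control shoots and 897, 101 and 90.7 in Cs shoots. AT4G14090 read 144, 3.77 and 23.8 in control shoots and 78.0, 3.83 and 4.14 in Cs shoots, so that the Cs value of number 1 lay at about the middle of the gap between its control partner and the rest. AT3G28270 read 419, 43.3 and 67.7 in control shoots and 388, 79.3 and 44.5 in Cs shoots. AT3G09440, one of the members with the highest signal, read 1473, 445 and 387 in control shoots and 1168, 428 and 390.4 in Cs shoots. Apart from AT3G21670 and AT1G68570, no function is given for these loci in the annotation used here. AT5G54130 was the only gene with more than 1 member probe set, and its probe sets had excesses of 1.78 and 1.71.

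The named members were not tied to 1 genomic neighbourhood. Members that do not name 1 gene alone were not placed. Chromosomes 1 to 5 held 13, 10, 11, 5 and 16 of the named member genes found as protein-coding genes in RefSeq TAIR10.1. In that gene order 3 pairs of neighbouring members lay within 20 genes of each other: AT1G68440 and AT1G68570 with 13 genes between them, AT2G41040 and AT2G41190 with 16, and AT2G41190 and AT2G41250 with 7. How many such pairs as many genes taken at random would hold was not counted.

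Other gene lists were followed on the same arrays. GI and CCL, the clock-linked genes with a probe set of their own, went the other way: CCL read 226 and 234 in the Rep1 shoots against 2022 to 3028 in the others, and GI 67.8 and 48.2 against 237 to 315. The summed signal of 3 probe sets of the water, abscisate and cold list was 1689.7 and 1503 in the Rep1 shoots against 2964 to 4583. The root markers summed to 423 and 378 in the Rep1 shoots and to 530.2 to 839 in the others. Most of that sum was PYK10, with 347 and 302 against 472 to 779. EXPA7 went the other way, with 39.7 and 42.2 against 9.39 to 27.3. EXPA18 overlapped, with 36.7 and 33.5 against 28.4 to 37.8. The 2 cell cycle probe sets had a median difference of -0.08, and the lists for seed maturation and for the secondary wall have no probe set that names a gene alone. The log2 ratio of 3' to 5' signal of actin, a sign of RNA quality, was 0.78 and 1.16 in Rep1 shoots and 1.12 to 1.68 in the others, so the ranges overlapped. For GAPDH it was -0.05 and -0.15 against -0.26 to 0.05, again with overlap. For ubiquitin it was 0.36 and 0.41 against 0.46 to 0.62, with no overlap, so this measure did set the Rep1 shoots apart. The part of any of these in the excess of the members was not tested.

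**Figure D2:**
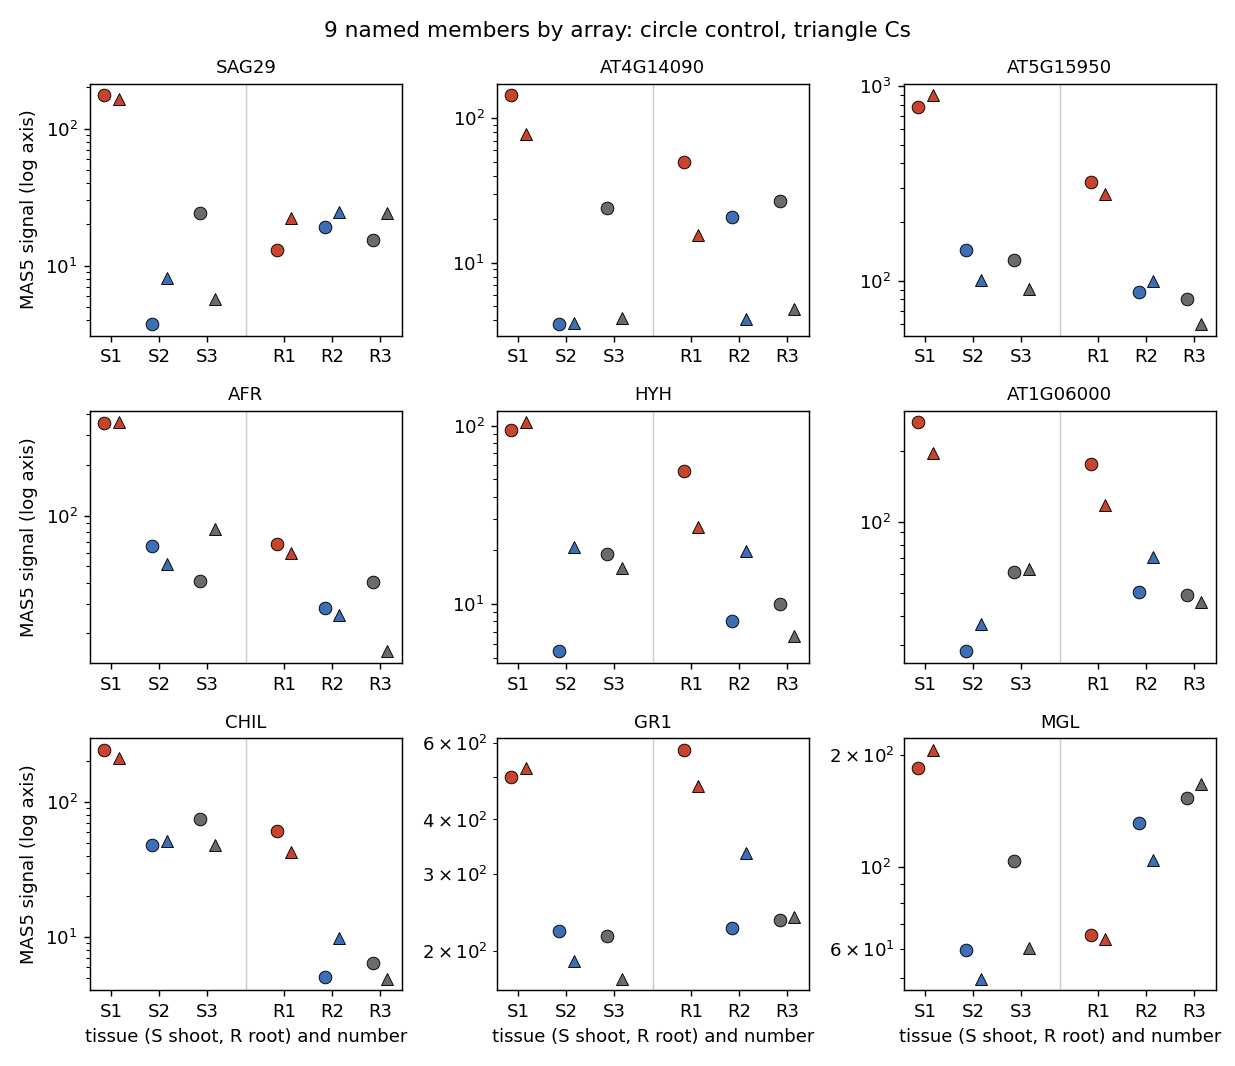
Signals (log axis) of 9 named members on the 12 arrays, by tissue (S shoot, R root) and replicate number, with circles for control and triangles for Cs. In all 9 the 2 Rep1 shoots lie above the other 4, while in roots CHIL, AT5G15950 and GR1 are high in number 1, SAG29 overlaps, and MGL is low at 65.5 and 63.9 against 104 to 167.

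Members of the set were on the whole lower in roots. The mean root signal was below the mean shoot signal in 109 of 138 members, with a median root minus shoot log2 difference of -0.97, where 42.2% of all probe sets were lower in root. In 32 members the root mean was lower by at least 2 on the log2 scale. ATSPS4F read 2.46 to 8.36 in the 6 roots, and AT3G28270 read 0.555 to 3.47, both near the floor. In 19 members all 6 root signals were below 11. Since the excess in 2 shoots raises the shoot mean by construction, this comparison carries no test. In whole organs, fewer cells of a type and less RNA per cell cannot be told apart.

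The same genes were then followed in roots, where the question was whether the 2 arrays titled Rep1 also stood apart. The median signal of the members was 51.5 in control root 1 and 45.6 in Cs root 1, against 23.2 to 30.3 in the other 4 roots. Of the 138, 100 had a higher mean in Rep1 roots than in the others (45.3% of all probe sets), and 52 had both Rep1 roots above all 4 others (9.03% of all probe sets). Only 4 had both below, where 12.5% of all probe sets did: MGL, AT2G41250, AT2G15020 and 1 unnamed probe set. The excess reached 1.2, the limit used in shoots, in 15 members in roots and in 91 of all 22746 probe sets.

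The test used limma with Benjamini-Hochberg adjustment over all 15508 probe sets bright enough in at least 1 tissue, and 118 members were among them. Of these 118, 69 passed on their root signal, 49 only on their shoot signal, and 20 members were too dim to be tested. By this test 28 members were higher in Rep1 roots, where 1.6% of all probe sets were called higher, and 1 was lower, where 2.16% were. At an unadjusted p under 0.05, 51 were higher and 6 lower, beside 1067 and 1401 of all 15508. Among the 69 with a sufficient root signal, 23 were called higher and 1 lower. The share called among all probe sets with a sufficient root signal was not counted, and the 1.6% and 2.16% are over all 15508. The median difference of the tested members was 0.32, beside -0.02 for all tested probe sets.

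These calls leaned on the 2 Rep1 root arrays. Without control root 1 only 2 members were called higher, AT5G15950 and CHIL, and over all probe sets the calls fell from 583 to 80. Without Cs root 1, 14 members were called higher, 12 of them shared with the 29 calls, and over all probe sets 140 were called. In both cases a single array stands for number 1 and is assumed to vary like the others. With the root arrays alone in the fit, 20 members were called higher. The median stayed between 0.27 and 0.41 when any 1 root array was left out.

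CHIL had the largest root difference of the named genes with the pseudocount of 11. It read 61.2 and 42.3 in control and Cs root 1, 5.05 and 9.86 in number 2, and 6.47 and 4.91 in number 3. Both Rep1 roots lay far above the other 4, with a difference of 1.83 ± 0.20 (SE; limma, adjusted p = 0.000471), and the call held in 15 of 15 alternatives. CHIL was not bright enough in root to pass on its root mean, so the log2 value understates the ratio of its signals. With a pseudocount of 44 its difference was 0.92, below the 1.46 of AT5G15950 and the 0.95 of AT1G06000. Of the flavonoid list 4 probe sets were tested in roots and CHIL was the only 1 called, though all 5 had a higher mean in Rep1 roots.

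AT5G15950 read 319.9 and 279 in root 1, 87.1 and 99.01 in number 2, and 80.2 and 59.8 in number 3. The difference was 1.76 ± 0.19 (limma, adjusted p = 0.000372) and was called in 15 of 15 alternatives. AT1G06000 read 176 and 117 against 45.4 to 70.9 (1.27 ± 0.28, limma adjusted p = 0.0234). Neither gene had overlapping groups. For AT1G06000 the call was lost in 6 of 15 alternatives, among them those without either Rep1 root, control root 2, control root 3 or Cs root 3.

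Of the light signalling genes, AFR passed the test in roots, and HYH was called only at the edge and through its shoot signal. HYH read 55.3 and 27.1 in root 1 and 6.61 to 19.7 in the other roots, a difference of 1.22 ± 0.31 (limma, adjusted p = 0.0486). The call was at the edge, since it held in 5 of the 14 alternatives in which HYH was tested, and it was kept only without Cs root 2 among the 6 that left out a root array. HYH was dim in roots and entered the test only through its 2 Rep1 shoots, since the other 4 shoots were below the level of 28.0. With no filter on dim probe sets its adjusted p was 0.0971 by limma. For HYH the root values are therefore a description, and no conclusion is drawn from the call. AFR read 67.5 and 60.3 in root 1 and 15.6 to 40.04 in the others (1.00 ± 0.23, limma adjusted p = 0.0287), and it was called in 10 of 15 alternatives, being lost without control root 1, Cs root 1, control root 2 or Cs root 3. LHCB4.3 read 39.5 and 32.9 in root 1 and 29.9 to 47.3 in the others, so that its groups overlapped and its difference was -0.00 ± 0.19.

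GR1 was called in roots as well. It read 578 and 477 in root 1, 226 and 335 in number 2, and 235 and 239 in number 3, a difference of 1.01 ± 0.16 (limma, adjusted p = 0.00504). The groups did not overlap, and the call was lost only without control root 1 (adjusted p = 0.195) among 15 alternatives, over which it ranged from 0.000194 to 0.195 by limma. PMEPCRF read 248 and 113 in root 1 and 72.1 to 96.8 in the others (0.87 ± 0.20, limma adjusted p = 0.0331). Its Rep1 pair was itself wide, and without control root 1 the difference was 0.39. The call was also lost without control root 2, control root 3 or Cs root 3. On the cell wall list 2 of 20 tested probe sets were called higher and 0 lower. GH9B8 read 249 and 211 in root 1 and 149 to 182 in the others (0.48 ± 0.22), which did not pass.

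Of the remaining named calls, AT3G56290, AT1G48100, AT5G19875 and AT5G54130 were higher in Rep1 roots by 1.00, 0.96, 0.88 and 0.69. AT3G56290 and AT1G48100 were each called in 13 of 15 alternatives and were lost without control root 1 and without Cs root 1. AT5G19875 kept its call only without Cs root 2 among the fits that left out 1 root array. AT5G54130 was called by 1 of its probe sets (adjusted p = 0.0412) and not by the other, which had 0.60 ± 0.37 (limma, adjusted p = 0.491). The call was lost without control root 1, Cs root 1, control root 3 or Cs root 3. The largest differences belonged to unnamed probe sets, chosen here after their values were seen. The one with the largest shoot excess, 3.81, read 436 and 306 in root 1 and 12.9 to 66.1 in the others (3.21 ± 0.44, limma adjusted p = 0.00193). Another, with a shoot excess of 2.18, read 153 and 149.9 in root 1 and 2.31 to 38.3 in the others (3.08 ± 0.38, limma adjusted p = 0.00108).

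MGL went the other way. It read 65.5 and 63.9 in root 1, 131 and 104 in number 2, and 153 and 167 in number 3, a difference of -0.97 ± 0.23 (limma, adjusted p = 0.0338). In shoots its Rep1 arrays were the highest and in roots the lowest, with no overlap in either tissue. The root call held in 8 of 15 alternatives and, of the 6 that left out a root array, only without Cs root 2. None of the other members below 0 passed. Those named by the rule on that side had -0.73 (AT2G27420), -0.48 (AT5G47610) and -0.39 (SWEET2), and unnamed probe sets lay between them.

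Several members with a wide shoot excess showed no such difference in roots. SAG29 read 13.1 and 22.4 in root 1 and 15.4 to 24.8 in the others, a difference of -0.16 ± 0.28 (limma, adjusted p = 0.865). It was dim in roots and entered the test only through its 2 Rep1 shoots, since the other 4 shoots were below the level of 28.0. For SAG29 the root values are therefore a description, and no conclusion is drawn from the test. AT1G65490 read 14.2 and 18.7 in root 1 and 9.40 to 22.4 in the others, and its groups overlapped too. AT3G09440 read 783 and 1046 in root 1 and 633 to 789 in the others, a difference of 0.32 ± 0.15 that did not pass. AT4G14090 was too dim to be tested and read 49.8 and 15.5 in root 1 and 4.06 to 26.7 in the others. There the 3 control roots lay at 49.8, 20.9 and 26.7 and the 3 Cs roots at 15.5, 4.06 and 4.82.

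The size of the shoot excess went loosely with the root difference. The median root difference was 1.51 in the 4 members with a shoot excess of at least 3, 0.73 in those between 2 and 3, 0.29 between 1.5 and 2, and 0.19 below 1.5. The 4 were split, with 3.21, 2.43 and 0.59 in unnamed probe sets and -0.16 in SAG29. The probe set with 0.59 read only 0.538 to 8.32 in roots. Over all 138 members Pearson's r was 0.40 and Spearman's rho 0.20, and over the 62 members with a root signal at least that of the median array value they were 0.62 and 0.42. These describe probe sets measured on the same few arrays, which are not independent. The rule cut the shoot excess off at 1.2, and the 62 were picked on a root mean that includes the Rep1 roots. The root difference had a median of 0.16 in the 32 members lower in root by at least 2, 0.45 in the 77 others lower in root, and 0.25 in the 29 higher in root.

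**Figure D3:**
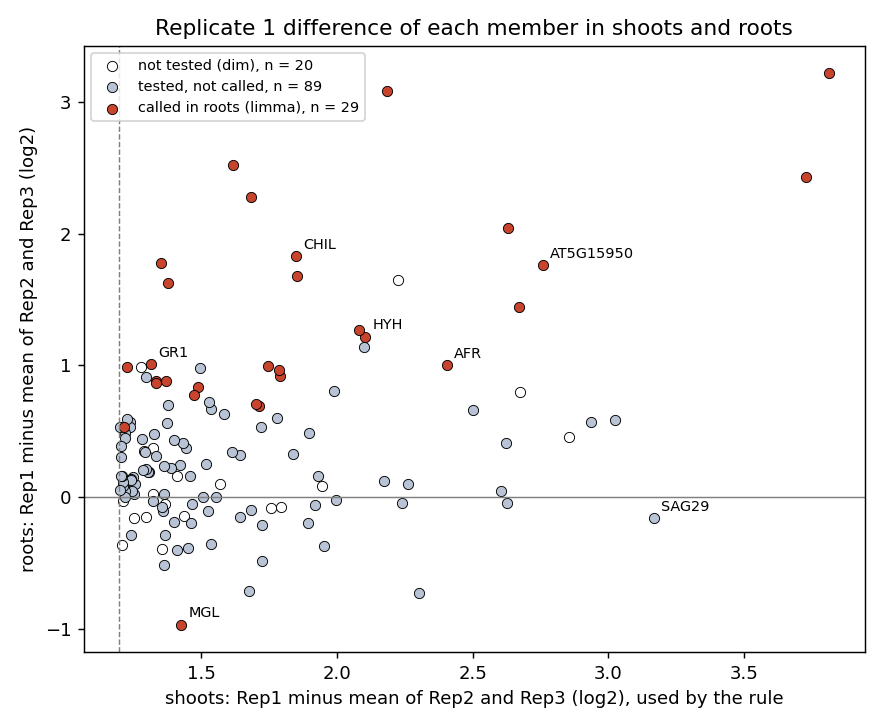
Each of the 138 members by its shoot difference (x axis, Rep1 mean minus mean of Rep2 and Rep3, log2, dashed line at the limit of 1.2) and its root difference (y axis, same measure), with the 29 members called by limma in roots in red, 89 tested but not called in blue and 20 not tested in white. CHIL and AT5G15950 lie high on both axes, SAG29 has 3.17 in shoots and -0.16 in roots, and MGL is the only red point below 0.

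Other measures also set the Rep1 roots apart. The array's control probe set for 25S ribosomal RNA read 3062 and 935 in control and Cs root 1 and 63.5 to 458 in the other roots, and in shoots its ranges overlapped (135 and 80.8 against 105 to 308). CCL read 20.4 and 15.4 in Rep1 roots against 52.4 to 185, GI 156 and 129 against 207 to 305, and both were called lower by limma, 2 of 2 on the clock list. The photosynthesis probe sets summed to 3.77% and 2.49% of the shoot mean in control and Cs root 1. They summed to 1.26% in control root 2, 1.70% in control root 3, 1.54% in Cs root 3 and 8.88% in Cs root 2. Both Rep1 roots thus lay above every other root except Cs root 2. Among the roots not numbered 1, Cs root 2 was also the highest for several members called in roots. CHIL read 9.86 there against 4.91 to 6.47, HYH 19.7 against 6.61 to 10.04, and AT1G06000 70.9 against 45.4 to 50.3. The same held for AT5G15950 and GR1. For AFR, AT3G56290, AT1G48100 and the called probe set of AT5G54130, another of those roots was higher. The root marker sum of 3580.3 and 3908 in Rep1 roots lay within the 3109 to 4235 of the others. The part of the ribosomal RNA signal, of the clock genes and of the photosynthesis signal in the root result was not tested, for CHIL or for the other members.

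Exposure to caesium was the comparison the labels imply, and 0 members passed it in either tissue. In shoots the median log2 difference, Cs minus control, was -0.11 over the 118 tested members, with 38 higher and 80 lower, beside 0.01 for all tested probe sets. By limma 0 members and 0 of 15508 probe sets were called (0% in either direction), and at an unadjusted p under 0.05 there were 0 members and 324 probe sets. SAG29 had 68.0 ± 94.0 in control and 59.8 ± 91.5 in Cs shoots (mean signal ± SD, n = 3), and CHIL had 122 ± 106 and 104 ± 93.3. In both the SD was about as large as the mean, since 1 array of each group is a Rep1 array. The median 95% half-width of a member's shoot difference was accordingly 1.03, against 0.43 for all tested probe sets.

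Same-numbered shoots deviated together from their group means over all probe sets, with correlations of 0.60, 0.31 and 0.34. Control shoot 3 with Cs shoot 2 gave 0.27, and control shoot 2 with Cs shoot 3 gave 0.15. Number 1 against the other numbers gave -0.46 to -0.34. Number 1 was thus set apart more clearly than numbers 2 and 3 were from each other. Same-numbered shoots were taken as pairs, from the data alone and with no word of it in the labels. With the replicate number as a block in the shoot arrays, the members' half-width fell to 0.31, and still 0 members passed (smallest limma adjusted p = 0.662). At an unadjusted p under 0.05, 18 members were then lower in Cs shoots (2.31% of all probe sets) and 0 higher (3.71%). The named ones among the 18 were ATSPS4F, with -0.31 ± 0.14, and the loci AT5G62210, AT5G22460, AT3G22550 and AT5G36160, with -0.70 ± 0.20, -0.65 ± 0.23, -0.49 ± 0.17 and -0.48 ± 0.16. AT5G62210 read 88.7, 34.6 and 25.7 in control shoots and 64.4, 21.2 and 5.02 in Cs shoots, lower in each number. Without the block, leaving out 1 shoot array moved the median of the members between -0.62 (without Cs shoot 1) and 0.43 (without control shoot 1).

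Within each number the members leaned to the lower side in Cs shoots. In number 1, 90 of 138 were lower in the Cs shoot with a median of -0.08 (48.3% of all probe sets were lower). In number 2 it was 97 with -0.17 (44.8%), and in number 3, 77 with -0.05 (49.1%). In every number 39 members were lower (11.2% of all probe sets) and 6 higher (15.5%). In roots 79, 55 and 67 members were lower in numbers 1, 2 and 3, beside 42.3%, 52.2% and 48.9% of all probe sets. Of the members 14 were lower in every number (12.6%) and 22 higher (16.3%). Members move together on an array, so these counts do not stand for that many separate observations.

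**Figure D4:**
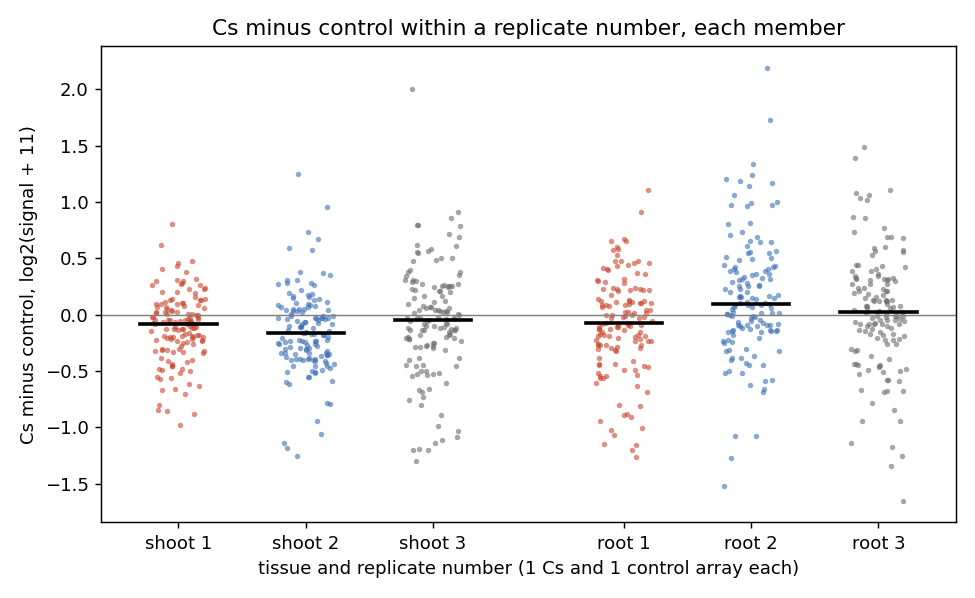
Difference between the Cs and the control array of the same tissue and number, in log2(signal + 11), for each of the 138 members (points) with the median (line). Medians run from -0.17 in shoot 2 to 0.10 in root 2, and the points of every pair lie on both sides of 0.

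In roots the exposure comparison gave a median of 0.03 over the tested members, with 68 higher and 50 lower. Limma called 0 members and 0 of 15508 probe sets, and at an unadjusted p under 0.05 there were 1 member and 589 probe sets. That member, an unnamed probe set, read 44.4, 56.5 and 49.8 in control roots and 93.2, 143 and 149 in Cs roots, a difference of 1.16 ± 0.42 (limma, adjusted p = 1). Its groups did not overlap. For SWEET2 the mean root signal went from 72.2 ± 11.4 in control to 115 ± 32.03 in Cs plants, a log2 difference of 0.58 ± 0.43 that did not pass. AT5G19240 had 67.6 ± 16.03 and 113 ± 29.9 (0.64 ± 0.41), with control roots at 85.7, 55.2 and 62.0 and Cs roots at 79.6, 137 and 122, so the groups overlapped through number 1. On the lower side AT3G22550 had 81.7 ± 49.9 and 45.7 ± 4.17 (-0.57 ± 0.48), and PMEPCRF 143 ± 91.0 and 94.0 ± 20.6 (-0.43 ± 0.47). The gap for PMEPCRF came with its value of 248 in control root 1, without which the difference was 0.02. None of these genes passed, and leaving out any 1 root array called 0 members. With the replicate number as a block in the root arrays, 0 members passed as well, and at an unadjusted p under 0.05 there were 10 members higher in Cs roots (5.01% of all probe sets) and 4 lower (3.13%), SWEET2 and AT5G19240 among those higher and AT5G54130 among those lower.

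The response to exposure was also compared between tissues. The median of root minus shoot responses was 0.14 over the tested members, with a median 95% half-width of 1.46 for the members and 0.61 for all tested probe sets. By that fit limma called 0 members and 0 probe sets (341 at an unadjusted p under 0.05, 0 of them members). With the replicate block in both tissues 13 members were among 958 probe sets at an unadjusted p under 0.05, and without the arrays numbered 1 there were 12 among 707, with 0 members called in either. Of the named members, AT5G54130 had the lowest p on the negative side by one of its probe sets, with a shoot response of 0.67, a root response of -0.13 and a difference of -0.79 ± 0.87. That shoot response rests on a value of 1.92 in control shoot 3, without which it was -0.12. HYH had a shoot response of 0.31 ± 0.71, which was -0.35 without Cs shoot 1 and -0.28 without control shoot 2. AT5G22460 had -0.65 in shoots and -0.01 in roots, a difference of 0.64 ± 0.58. GH9B8 had 0.13 in shoots and -0.21 in roots, a difference of -0.33 ± 0.58. None of these passed, with a limma adjusted p of 1 for each.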

How the data were processed

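The values are the deposited MAS5 intensities of 12 ATH1 arrays, 1 linear value per probe set, and MAS5 is named without a version per the submitters' processing notes. Their 2% trimmed mean was 100.01 on each array. How the background was corrected, and any detection call, is not stated there. No further normalization was applied, and signals were transformed as log2(signal + 11), which understates changes of dim probe sets. Groups, numbers and tissue came from the sample labels. The annotation names 1 gene for 13513 of 22746 probe sets, several for 503 and none for 8730, and 13436 of the 13513 were found in RefSeq TAIR10.1. No coordinates are printed, since no source used here gives the array's build. Promoter sequences were not analysed here.

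Probe sets were tested where the mean log2 signal of a tissue reached its 40th percentile (28.0 in shoot, 31.2 in root), which left 15508. Limma 3.58.1 in R 4.3.3 (lmFit, eBayes with an intensity trend, two-sided, Benjamini-Hochberg over all 15508, threshold 0.05) was fitted to all 12 arrays. For the replicate question the model had 4 group means and a Rep1 term in each tissue (6 residual degrees of freedom), and for exposure 4 group means (8). On simulated data 42% of 2-fold and 91% of 4-fold changes were recovered in the root replicate comparison, and 53.5% and 93.5% in the shoot exposure comparison. The simulated noise held no differences by number. Same-numbered roots deviated together by 0.37, -0.02 and 0.30, so the data gave no clear ground for pairs in roots. The root fits with a replicate block and the root differences within a number use such pairs all the same. They are given beside the fit without a block. Python 3.11.15 with pandas 2.3.3 built the tables.

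The members, the 32 gene lists and the tests were chosen with earlier results of these data known. Named genes are the 16 members with the largest shoot excess, the 6 with the highest mean shoot signal, the largest changes in each test filled to 2 or 4 per direction by the smallest p, list members and those beside the limit. Others were named after their values were seen. Alternatives were the pseudocount (2.75 or 44), quantile normalization, median centring, no filter or the 60th percentile, no trend, 1 tissue alone, a replicate block, no arrays numbered 1, and leaving out each array.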

Additional observations from a re-analysis of the deposited data

How the results depend on the processing

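The number of members followed the pseudocount: the rule found 332 with 2.75 and 63 with 44, beside 141 with quantile normalization and 163 with median centring. In Rep1 roots, leaving out 1 root array moved the members called higher between 2 and 34, those called lower between 0 and 3, and the calls over all probe sets between 80 and 946. Of members called lower there were 0 with a pseudocount of 2.75 and 0 without the filter. With the replicate block, a term for every number in each tissue, 2 were lower and 28 higher, and 28 of the 29 calls were shared. In the exposure comparison, leaving out 1 shoot array moved the shoot median between -0.62 and 0.43. Single responses that changed sign when 1 array was left out were those of HYH in shoots (-0.35 to 1.06), AT5G54130 in shoots (-0.12 to 1.44) and PMEPCRF in roots (-0.68 to 0.024). In roots, 1 probe set was called with a pseudocount of 44, 6 with the replicate block in both tissues, 11 with that block in the 6 root arrays, 5 without the arrays numbered 1 and 0 to 7 without 1 array, and 0 members in each. In that fit to the 6 root arrays the smallest adjusted p of a member was 0.0689 by limma. The cause of these shifts was not tested.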
